A study of Homo sapiens with 9 samples.

Results

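The genes described here are 10 factors that make, block or degrade the let-7 microRNAs: LIN28A, LIN28B, TUT4, TUT7, DIS3L2, DROSHA, DGCR8, XPO5, DICER1 and AGO2. They were chosen by symbol for their roles in this pathway, and each matched 1 of the 60829 rows of the deposited table. All libraries are total RNA, depleted of ribosomal RNA, from the human embryonic stem cell line H1. The control group (chrX-ctrl_H1) carries the genotype label WT and gave 4 libraries. The knockout group (chrX-KO_H1) lacks HERVHlin on chromosome X, a locus that the series title links to the LIN28A/let-7 pathway, and gave 5 libraries. Each group is 1 clone sampled over sequential passages. The series design treats these as technical replicates while the sample titles call them biological ones, and with 1 clone per group p-values measure the spread between passages and not between clones. Both groups were kept in mTESR medium on vitronectin, and both carry a treatment label for differentiated cells.

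Let-7 microRNAs are made in steps. DROSHA, a nuclear RNase III, and its RNA-binding partner DGCR8 form the Microprocessor, which cuts the hairpin precursor out of the primary transcript. XPO5 carries the hairpin to the cytoplasm, DICER1 cuts off the loop, and AGO2 takes up the mature strand and can cleave paired targets. In pluripotent cells LIN28A and LIN28B bind let-7 precursors, and this pair of related proteins, each with a cold shock domain and CCHC zinc knuckles, holds mature let-7 low. LIN28A recruits the terminal uridylyltransferases TUT4 and TUT7, which add a tail of uridines, and the 3′-to-5′ exonuclease DIS3L2 degrades the tailed precursor.

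The precursors show what this machinery recognises, and 4 hairpins are given here, namely the 3 whose rows could be tested and 1 more that lacks the motif. The zinc knuckles of LIN28 proteins are known to bind GGAG in the terminal loop. Capitals mark each GGAG between the mature arms, searched on the RNA strand only, in RefSeq hairpins (GRCh38.p14) written 5′ to 3′.
let-7g, chr3:52268278-52268361, minus strand: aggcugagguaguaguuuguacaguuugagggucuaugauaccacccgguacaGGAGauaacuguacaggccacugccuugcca
let-7i, chr12:62603686-62603769, plus strand: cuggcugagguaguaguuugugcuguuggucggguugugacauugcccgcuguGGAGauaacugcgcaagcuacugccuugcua
miR-98, chrX:53556223-53556341, minus strand: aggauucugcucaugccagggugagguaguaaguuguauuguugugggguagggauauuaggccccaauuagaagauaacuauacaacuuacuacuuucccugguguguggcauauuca
let-7a-3, chr22:46112749-46112822, plus strand: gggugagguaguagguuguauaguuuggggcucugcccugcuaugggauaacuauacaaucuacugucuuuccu
GGAG stood in let-7g and let-7i and not in miR-98 or let-7a-3. All 12 let-7 family hairpins matched a RefSeq entry, and 9 of them (75.0%) held GGAG somewhere, against 43.4% of 1562 RefSeq human hairpins. The mature product of the let-7g hairpin is shown with its seed, bases 2 to 8, in capitals.
hsa-let-7g-5p: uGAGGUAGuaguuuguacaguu
The same seed, GAGGUAG, stands in the mature 5p strands of let-7i, let-7a and miR-98.

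Values are normalized counts, meaning reads per gene after the authors' division by a size factor for each library. Libraries held 19838682 to 31192630 reads, of which protein-coding rows took 26.3% (knockout 1) to 50.8% (control 3). Summed over 10 markers of pluripotent cells, the level ran from 29390 to 60530 normalized counts in the control libraries and from 25340 to 37500 in the knockout libraries, with none of the markers at 0. POU5F1, a defining factor of pluripotent cells, measured 6572 to 16354 normalized counts over the 9 libraries. Its log2 fold change, knockout against control, was -0.39 (SE 0.26, limma adjusted p = 0.74). Of the 10 pluripotent markers 9 were negative, from TDGF1 at -0.92 (SE 0.31, limma adjusted p = 0.39) to DPPA4 at 0.01, and limma called 0. Their median was -0.34, and came to -0.15 without control 3 and -0.14 with scaling to the protein-coding total. Sums over 6 markers each ran from 13.6 to 41.3 for neural ectoderm, 59.0 to 313 for endoderm and 109 to 236 for trophectoderm, with overlapping clones. The 6 mesoderm markers summed to 496 to 979 in the control and to 308 to 464 in the knockout libraries, without overlap. KDR, a receptor of VEGF, made up most of that sum (log2 fold change -0.80, limma adjusted p = 0.30, and 0.039 in DESeq2). MIXL1 did not overlap either, as was so for 3.95% of all tested rows. The 6 fibroblast markers summed to 1084 to 1790 and to 951 to 1460. Of these, COL1A1, COL1A2 and PDGFRB held 58.2 normalized counts or more in every library and DCN 6.99 to 24.9. COL3A1 reached at most 8.15 and LUM at most 1.82. COL1A1 (log2 fold change -0.78, limma adjusted p = 0.42) and PDGFRB (-0.72, limma adjusted p = 0.37) were lower in the knockout clone. In the authors' deposited values the log2 fold change was -0.02 for COL1A2, 0.13 for DCN, 1.945 for COL3A1 and -0.44 for LUM. The part of these markers in the results below was not tested, and the coding share is taken up through scaling to the protein-coding total.

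None of the 10 genes differed between the clones past the threshold. With limma on log2(value + 1), 0 of 10 passed a Benjamini-Hochberg adjusted p of 0.05, where 0.54% of the 27777 tested rows passed. The count was also 0 with edgeR (0.544% of rows called), with DESeq2 (2.05%) and with the replicate number as a block (0.155%). The authors' deposited table gave 0 too (2.05%). It called 781 of 38063 rows, as DESeq2 did here, so it is not a separate result. At an unadjusted limma p under 0.05 the count was 0 of 10 as well, against 8.63% of rows. The libraries of the clones overlapped for each of the 10, while they did not for 3.95% of tested rows. The 95% intervals of the 10 differences lay between -0.97 and 0.54 on the log2 scale, which is 0.511-fold to 1.45-fold. The median of the 10 log2 fold changes was -0.04, with 6 negative and 4 positive, beside a median of -0.09 over 14752 tested protein-coding rows and 0.01 over all tested rows.

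LIN28A (ENSG00000131914.11, chromosome 1, 26410778 to 26429722, plus strand, positions here and below from GENCODE 29 on GRCh38) blocks let-7 maturation and was the most abundant of the 10 per length. It measured 10756, 12827, 20953 and 8804 normalized counts in controls 1 to 4, and 9500, 10798, 12272, 8125 and 8323 in knockouts 1 to 5. Control 3 stood far above every other library, controls 1 and 4 lay within the knockout range and control 2 just above it. The means were 13335 ± 5337 (SD, n = 4) and 9804 ± 1745 (SD, n = 5), a log2 fold change of -0.38 (SE 0.26, 95% interval -0.97 to 0.20, limma adjusted p = 0.75). With 1 library left out it ran from -0.56 (without control 4) to -0.14 (without control 3). It was lower in the knockout library in 4 of 4 pairs with the same replicate number (log2 differences -0.18, -0.25, -0.77 and -0.12), and with the replicate block the fit gave -0.33 (SE 0.16, limma adjusted p = 0.50). As a share of protein-coding reads, LIN28A took 115, 138, 149 and 116 per 100000 in controls 1 to 4 and 104 to 121 per 100000 in the knockout libraries. On that measure control 1 and control 4 fell within the knockout range, and control 2 and control 3 above it. In bulk RNA, here and below, fewer cells of a type and less RNA per cell cannot be told apart.

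LIN28B (ENSG00000187772.8, chromosome 6, 104936616 to 105083332, plus strand), the paralogue of LIN28A, followed the same libraries at a lower level. Its values were 643, 777, 1327 and 607 normalized counts in controls 1 to 4, and 658, 666, 932, 585 and 719 in knockouts 1 to 5. Control 3 was again the highest library and knockout 3 the second highest. The means of 838 ± 334 (SD, n = 4) and 712 ± 132 (SD, n = 5) gave a log2 fold change of -0.18 (SE 0.24, 95% interval -0.72 to 0.36, limma adjusted p = 0.85). With 1 library left out LIN28B ran from -0.31 (without control 4) to 0.07 (without control 3). Across the 9 libraries the log2 values of LIN28A and LIN28B had a Pearson r of 0.91, and 0.70 without control 3. These libraries share scaling and composition, so r is a description only.

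Both Microprocessor genes were spread evenly over the clones. DROSHA (ENSG00000113360.17, chromosome 5, 31400497 to 31532196, minus strand) measured 733, 1025, 1245 and 861 normalized counts in controls 1 to 4, and 909, 697, 984, 1110 and 1076 in knockouts 1 to 5. The lowest library was knockout 2 and the highest control 3, and apart from knockout 2 the knockout values lay inside the control range. DROSHA gave a log2 fold change of -0.01 (SE 0.20, 95% interval -0.45 to 0.43, limma adjusted p = 0.99), the value closest to 0 among the 10, and ran from -0.13 without control 1 to 0.12 without control 3. DGCR8 (ENSG00000128191.16, chromosome 22, 20080232 to 20111877, plus strand) measured 206, 351, 295 and 313 normalized counts in controls 1 to 4, and 257, 272, 236, 266 and 338 in knockouts 1 to 5. Control 1 was its lowest library and control 2 its highest, which again enclosed the knockout values. DGCR8 gave a log2 fold change of -0.07 (SE 0.18, 95% interval -0.48 to 0.33, limma adjusted p = 0.92), with -0.23 without control 1 and 0.02 without control 2. DGCR8 transcripts contain hairpins that the Microprocessor itself can cut, and the rows of MIR1306 and MIR3618, which overlap DGCR8 exons, had 0 reads in all 9 libraries.

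Export and dicing differed as little. XPO5 (ENSG00000124571.18, chromosome 6, 43522330 to 43576075, minus strand) measured 596, 718, 1032 and 848 normalized counts in controls 1 to 4, and 661, 705, 821, 765 and 700 in knockouts 1 to 5. The control libraries were spread widely, with control 3 on top, and all 5 knockout libraries fell between control 1 and control 4. XPO5 gave a log2 fold change of -0.10 (SE 0.17, 95% interval -0.48 to 0.28, limma adjusted p = 0.88), with -0.23 without control 1 and 0.03 without control 3. DICER1 (ENSG00000100697.15, chromosome 14, 95086228 to 95158010, minus strand) measured 497, 505, 568 and 499 normalized counts in controls 1 to 4, and 652, 546, 560, 540 and 512 in knockouts 1 to 5. Each knockout library lay above controls 1, 2 and 4, but control 3 exceeded 4 of the 5. DICER1 gave a log2 fold change of 0.12 (SE 0.12, 95% interval -0.15 to 0.39, limma adjusted p = 0.82), and knockout 1 and control 3 bore most on it, with 0.06 without knockout 1 and 0.16 without control 3.

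AGO2 (ENSG00000123908.12, chromosome 8, 140520156 to 140635619, minus strand), the Argonaute with slicer activity, had the largest positive value of the 10. It measured 520, 516, 771 and 660 normalized counts in controls 1 to 4, and 650, 692, 752, 750 and 649 in knockouts 1 to 5. Controls 1 and 2 lay below every knockout library, while control 3 lay above them all. The means of 617 ± 123 (SD, n = 4) and 699 ± 50.8 (SD, n = 5) gave a log2 fold change of 0.20 (SE 0.15, 95% interval -0.14 to 0.54, limma adjusted p = 0.78). It was 0.31 without control 3 but 0.12 without control 1 and 0.12 without control 2, and 3 of 4 same-numbered pairs were higher in the knockout clone.

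The decay arm is made of TUT4, TUT7 and DIS3L2. TUT4 (ENSG00000134744.14, chromosome 1, 52408282 to 52553487, minus strand) measured 865, 797, 681 and 745 normalized counts in controls 1 to 4, and 859, 812, 742, 891 and 796 in knockouts 1 to 5. Control 3, the highest library for both LIN28 genes, was the lowest here. TUT4 gave a log2 fold change of 0.09 (SE 0.12, 95% interval -0.18 to 0.36, limma adjusted p = 0.86), with 0.03 without control 3 and 0.15 without control 1. TUT7 (ENSG00000083223.18, chromosome 9, 86287733 to 86354454, minus strand), the partner enzyme, measured 255, 227, 231 and 238 normalized counts in controls 1 to 4, and 238, 186, 204, 244 and 197 in knockouts 1 to 5. Knockouts 2, 3 and 5 lay below every control library and knockouts 1 and 4 among them. TUT7 gave a log2 fold change of -0.16 (SE 0.14, 95% interval -0.46 to 0.14, limma adjusted p = 0.79), with -0.21 without knockout 4 and -0.11 without knockout 2. DIS3L2 (ENSG00000144535.20, chromosome 2, 231961245 to 232344350, plus strand) measured 174, 162, 195 and 173 normalized counts in controls 1 to 4, and 173, 196, 222, 159 and 222 in knockouts 1 to 5. Knockout 4 was its lowest library, and knockouts 3 and 5 its highest. DIS3L2 gave a log2 fold change of 0.13 (SE 0.15, 95% interval -0.20 to 0.47, limma adjusted p = 0.83), with 0.08 without knockout 3 and 0.20 without knockout 4.

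**Figure D1:**
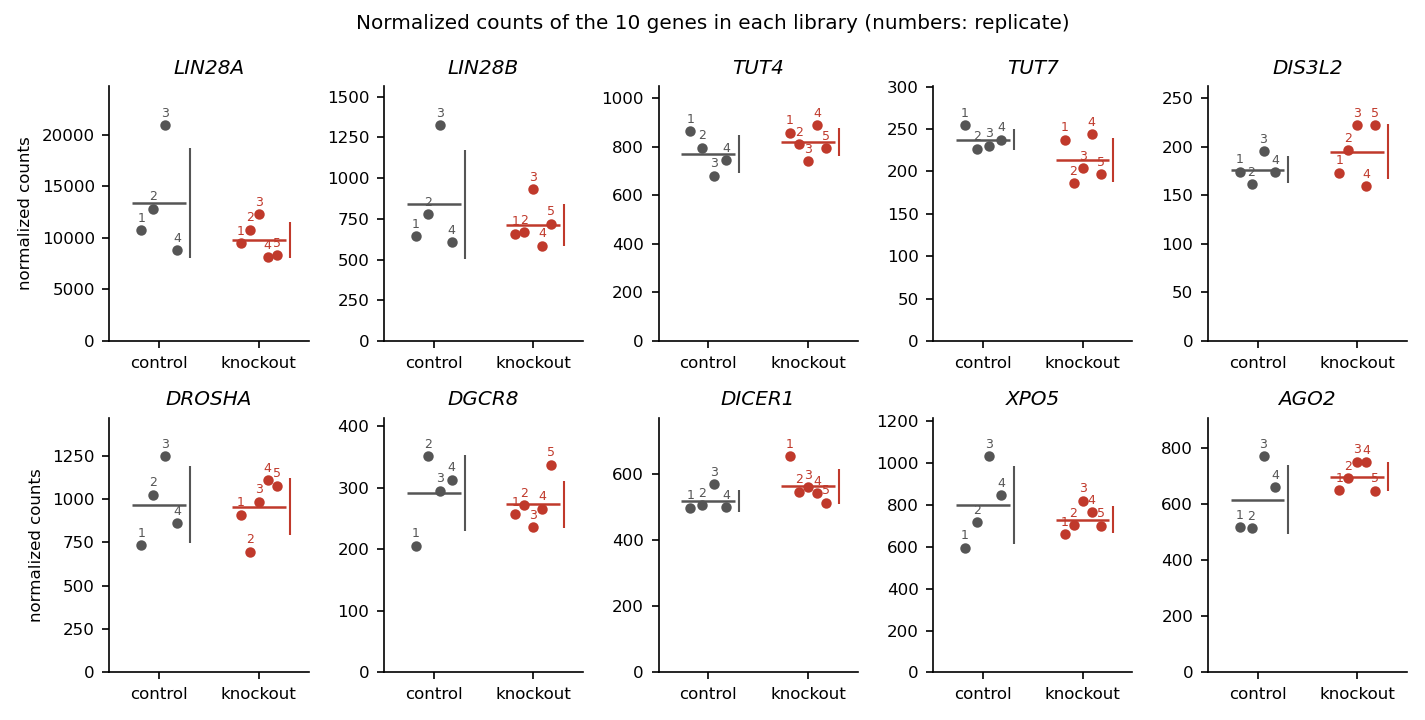
Normalized counts of the 10 genes (y axis, from 0) in the 4 control and 5 knockout libraries, numbered by replicate, with the group mean as a horizontal line and 1 SD either side as a vertical line. The groups overlap in every panel, and control 3 is the highest library for LIN28A, LIN28B, DROSHA, XPO5 and AGO2 and the lowest for TUT4.

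Small differences changed sign with the scaling and with single libraries left out. Over 20 fits, LIN28A was negative in each, and TUT4, DIS3L2, DICER1 and AGO2 were positive in each, while LIN28B, TUT7, DROSHA, DGCR8 and XPO5 took both signs. None of these fits called any of the 10, and the smallest adjusted p was 0.41, for LIN28A. Scaling each library to its protein-coding total moved the median of all tested rows from 0.01 to 0.21. On that scaling 9 of the 10 were positive with a median of 0.16, with LIN28A at -0.18, TUT4 at 0.29, DIS3L2 at 0.34, DICER1 at 0.32 and AGO2 at 0.40. Quantile normalization, which gives all libraries the same distribution, moved LIN28A further than any other setting did, to -0.05.

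**Figure D2:**
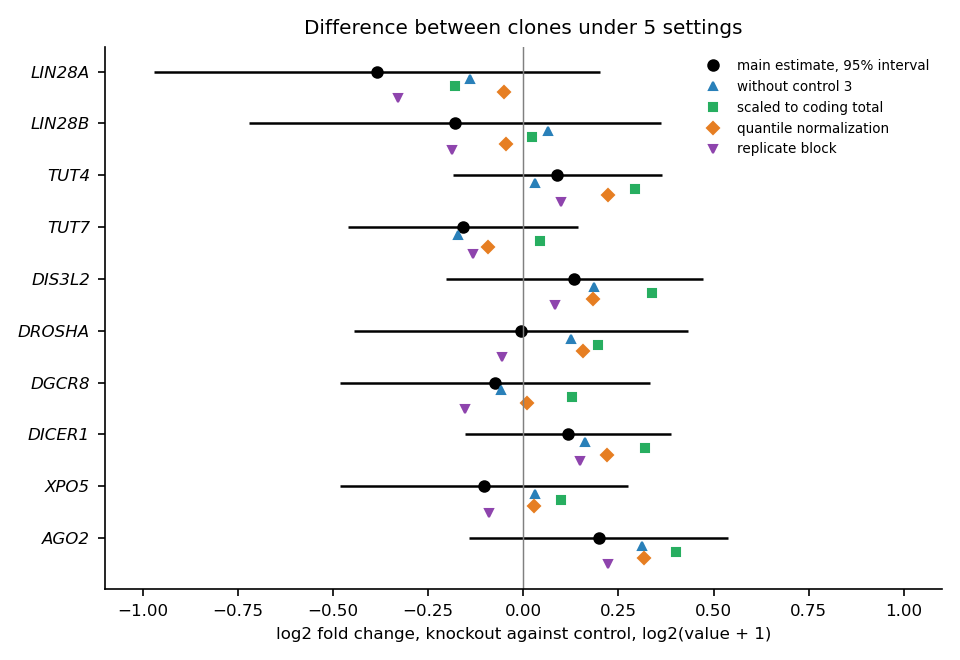
Log2 fold change of each gene, knockout against control (x axis), with the main estimate and its 95% interval in black and 4 other settings as coloured symbols below it. All 10 intervals cross 0, and leaving out control 3 moves LIN28A from -0.38 to -0.14 and LIN28B from -0.18 to 0.07.

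Levels were compared between genes only per kilobase of the longest protein-coding transcript in GENCODE 29. On this scale LIN28A held 2838 ± 988 normalized counts per kb over the 9 libraries (SD), at the 98.2 percentile of 14612 tested protein-coding rows. DROSHA followed with 181 ± 33.7 per kb, below LIN28A in all 9 libraries and above XPO5 in 8. XPO5 (142 ± 23.8), LIN28B (140 ± 42.6) and TUT4 (136 ± 11.6) were not separated, as XPO5 exceeded LIN28B in 4 libraries and LIN28B exceeded TUT4 in 3. DGCR8 (62.4 ± 10.5), DIS3L2 (53.2 ± 6.83) and DICER1 (52.5 ± 4.76) formed the next step, each above its successor in 7 and 6 of 9 libraries. AGO2 (45.4 ± 6.44) and TUT7 (39.2 ± 4.09, the 40.4 percentile) were lowest, with AGO2 above TUT7 in 7 libraries. The length used matters for this order. Per kilobase of merged exons LIN28A stayed first in all 9 libraries, but DIS3L2 fell to last at 16.4 per kb and TUT4 to 49.3 per kb, since their merged exons (11337 and 16199 bases) are far longer than their longest coding transcripts (3501 and 5858 bases).

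**Figure D3:**
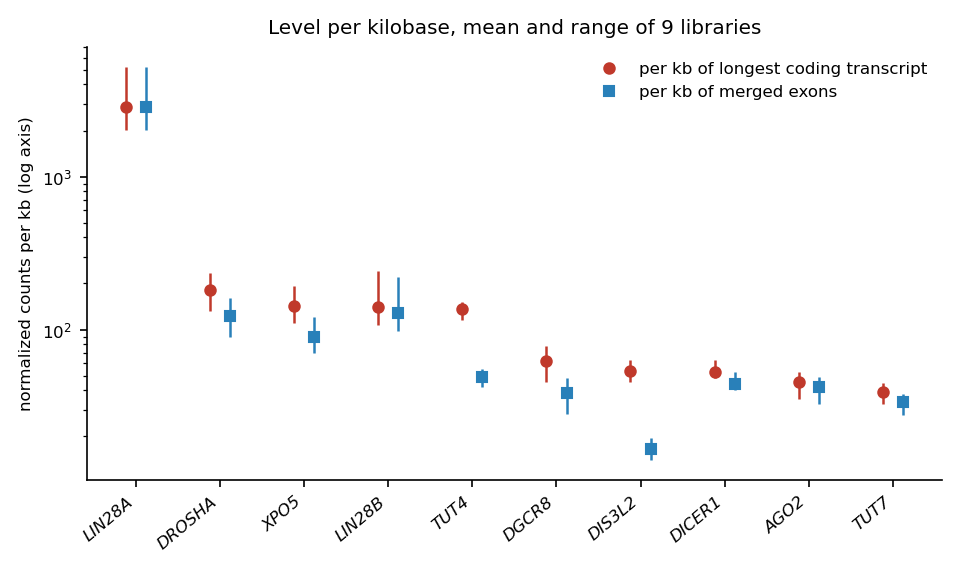
Normalized counts per kilobase on a log axis for each gene, as the mean (symbol) and the range over 9 libraries (line), with the length taken from the longest coding transcript (red) or from merged exons (blue). LIN28A lies above the other 9 genes with either length, whereas TUT4 and DIS3L2 drop when merged exons are used.

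The genes differed in how steady they were from passage to passage. The SD of log2 values within clones was 0.12 for both DICER1 and TUT4, at the 1.49 and 2.07 percentiles of 9955 protein-coding rows averaging 100 normalized counts or more, whose median SD was 0.32. TUT7 (0.14) and DIS3L2 (0.18) were steady as well, at the 3.56 and 9.75 percentiles. LIN28A (0.40) and LIN28B (0.39) varied more than most, at the 70.5 and 67.5 percentiles. Without control 3 they came to 0.26 and 0.23, at the 48.7 and 38.0 percentiles, while DICER1 and TUT4 stayed at the 2.76 and 2.49 percentiles. TUT7 (0.149) and DIS3L2 (0.178) then stood at the 10.1 and 18.9 percentiles. Counting error was small beside this spread for LIN28A (0.96% expected against 29.5% observed within clones). It was closer for TUT7 (6.73% against 9.75%) and DIS3L2 (7.39% against 12.2%), which had 104 to 327 reads per library.

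Among the other pairs of the 10, TUT4 ran opposite to XPO5 (Pearson r = -0.84 over 9 libraries, -0.67 without control 3) and to LIN28B (-0.80, and -0.58 without control 3). TUT7 and DIS3L2 also ran opposite to each other (-0.75, and -0.78 without control 3). These are 3 of 45 pairs and a description, since the libraries share 1 scaling and differ in coding share. DROSHA and its partner DGCR8 had an r of 0.46. Of 7500 protein-coding rows averaging 200 normalized counts or more, those most like LIN28A over the 9 libraries were ELK1, FANCF and GRSF1 (r from 0.990 to 0.991), and those most like LIN28B were SRSF9, FAM32A and SMARCA5 (r from 0.989 to 0.993). Without control 3 the r of these 6 ran from 0.964 to 0.978. The 6 were picked for the highest r over libraries that include these, so the high values are a description and no separate support.

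Ratios within a library do not depend on the scaling. The level of LIN28A per kb was 19.9 to 23.0 times that of LIN28B in the control libraries and 15.9 to 22.3 times in the knockout libraries, with knockout 5 the lowest. DROSHA to DGCR8 gave 2.34 to 3.59 and 2.18 to 3.55, and XPO5 to DICER1 2.31 to 3.50 and 1.95 to 2.82, so that these ranges overlapped too. TUT4 to TUT7 ran from 2.89 to 3.43 in the controls and from 3.53 to 4.26 in the knockout libraries, with no overlap. Of all 45 ratios between the 10 genes, 2 did not overlap between the clones, TUT4 to TUT7 and XPO5 to AGO2. That is 4.44%, near the 4.86% of ratios between any 2 protein-coding rows averaging 100 normalized counts or more, so it is no result about these genes.

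**Figure D4:**
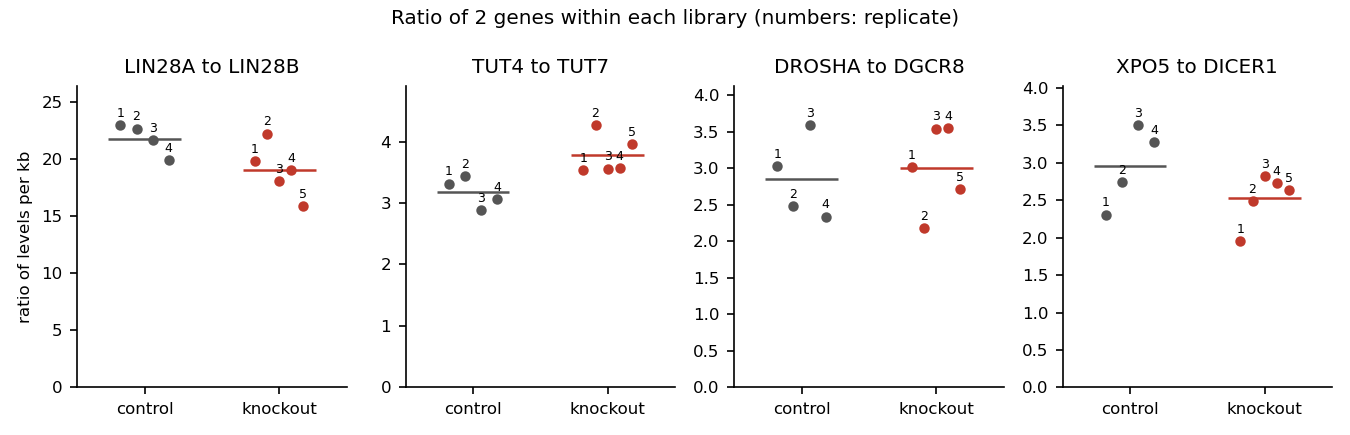
Ratio of the levels per kb of 2 genes (y axis, from 0) within each of the 9 libraries, numbered by replicate, with the group mean as a line. The clones overlap for LIN28A to LIN28B, DROSHA to DGCR8 and XPO5 to DICER1, and TUT4 to TUT7 is at most 3.43 in the controls and at least 3.53 in the knockout libraries.

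Partners of this machinery gave no call either. Of 52 protein-coding partners in 6 lists, all of them tested, limma, edgeR and DESeq2 each called 0. The authors' deposited table, which is not separate from DESeq2, called 0 too. At an unadjusted limma p under 0.05, 2 were higher and 1 lower, beside the 8.63% over all tested rows. The median log2 fold change of the 52 was -0.08, with 37 negative and 15 positive, but it turned to 0.13 with protein-coding total scaling and to 0.08 without control 3. The median of all tested protein-coding rows moved in the same way, from -0.09 to 0.11 and 0.02. Signs in the lists below are those on the deposited scaling.

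Of 13 Microprocessor partners 10 were negative (median -0.11), from the RNA helicase DDX5 at -0.31 (SE 0.31, limma adjusted p = 0.81) to its paralogue DDX17 at 0.08. DDX5 ran from -0.54 without control 1 to -0.08 without control 3, and was 0.02 under quantile normalization. Of 4 partners in export and dicing, RAN, the GTPase that loads XPO5, was lowest at -0.27 and PRKRA, a DICER1 cofactor, highest at 0.03. RAN was -0.42 without control 4, 0.09 under quantile normalization and 0.04 without control 3, the library in which it held 22229 normalized counts.

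Of 7 other Argonaute and GW182 genes the median was 0.06. TNRC6C, a GW182 protein that links Argonautes to deadenylation, had the largest positive value of the 52. It measured 356, 235, 271 and 406 normalized counts in controls 1 to 4, and 443, 373, 397, 591 and 452 in knockouts 1 to 5. Only control 4 reached into the knockout range, above knockouts 2 and 3. TNRC6C gave a log2 fold change of 0.52 (SE 0.20, limma adjusted p = 0.49). The RNA helicase MOV10 was lowest at -0.33 (SE 0.17, limma adjusted p = 0.65).

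The 5 other terminal nucleotidyltransferases ran from TENT4B at -0.15 to TENT4A at 0.26, both of which extend RNA tails in the nucleus. Of 16 other RNA decay nucleases and exosome subunits 14 were negative (median -0.14). The exosome subunit EXOSC4 was lowest at -0.48 (SE 0.42, limma adjusted p = 0.80). Leaving out control 1 gave -0.84 for EXOSC4, and leaving out control 3 gave -0.19. The 5′-to-3′ exonuclease XRN1 was highest at 0.45 (SE 0.20, limma adjusted p = 0.57).

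Of 7 other proteins that act on let-7 or its precursors, TRIM71 and MSI2 were the extremes. TRIM71, a let-7 target and RNA-binding ubiquitin ligase, measured 2335, 1913, 2713 and 1893 normalized counts in controls 1 to 4, and 1513, 1740, 1801, 1428 and 1518 in knockouts 1 to 5. Its clones did not overlap, which held for 1 of the 52 partners and for 3.95% of all tested rows. The log2 fold change of TRIM71, -0.46 (SE 0.15), did not pass (limma adjusted p = 0.37, and 0.079 in DESeq2). MSI2, an RNA-binding Musashi protein, stood at 0.49 (SE 0.22, limma adjusted p = 0.58).

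**Figure D5:**
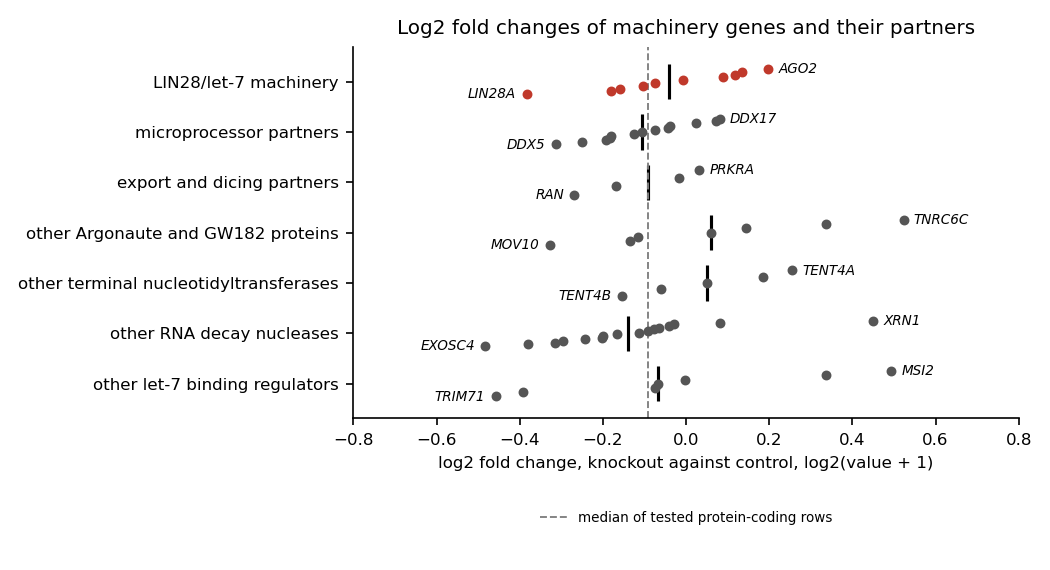
Log2 fold change, knockout against control (x axis), of the 10 genes (red) and of 52 partners in 6 lists (grey), with list medians as black bars, the lowest and highest gene of each list named, and the median of tested protein-coding rows dashed. The list medians lie between -0.14 and 0.06, near the dashed line at -0.09.

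Coverage of the let-7 hairpin rows, which were matched by symbol, was uneven. Rows with miRBase-style MI identifiers took 5.28% (control 3) to 31.4% (knockout 1) of all reads. Whether any of these held let-7 reads was not tested. Of the 12 let-7 family hairpin rows, 7 had 0 reads in every library and 3 were tested, and their sum ran from 225 to 848 normalized counts in the control clone and from 304 to 807 in the knockout clone. MIRLET7G, whose hairpin is printed above, held 120, 455, 133 and 288 normalized counts in controls 1 to 4, and 239, 211, 0, 97.2 and 248 in knockouts 1 to 5. Its log2 fold change on the log2(value + 1) scale, -1.71 (SE 1.52, limma adjusted p = 0.80), rested on knockout 3 and was -0.20 without it. MIRLET7I, the other hairpin with GGAG printed above, held 0, 171, 0 and 57.8 normalized counts in controls 1 to 4, and 399, 53.0, 189, 146 and 149 in knockouts 1 to 5. The clones overlapped here too, and 2 control libraries had no reads. On the log2(value + 1) scale the log2 fold change of MIRLET7I was 3.95 (SE 1.53, limma adjusted p = 0.49). It was 2.84 without control 1 or without control 3, and 1.71 in DESeq2. MIR98, also tested, averaged 116 ± 16.6 (SD, n = 4) in the control and 145 ± 96.4 (SD, n = 5) in the knockout clone. The log2 fold change of MIR98 was 0.06 (SE 0.46, limma adjusted p = 0.97). MIRLET7BHG, the host transcript of let-7a-3 and let-7b, held 11.7, 34.2, 11.9 and 13.5 normalized counts in controls 1 to 4, and 9.58, 5.64, 3.49, 2.99 and 7.37 in knockouts 1 to 5. Its clones did not overlap, at 3 to 22 reads per library, as was so for 3.95% of all tested rows. The log2 fold change of MIRLET7BHG, -1.41 (SE 0.50, limma adjusted p = 0.41), did not pass. Total RNA libraries do not measure mature microRNAs, so these values say nothing of mature let-7.

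Some rows overlap the 10 genes in their exons, and the labels do not say whether counting used the strand. POLR1C, on the other strand, shares 348 exonic bases with XPO5 and averaged 373 ± 82.5 in the control and 271 ± 44.9 in the knockout clone, a log2 difference of -0.45 (SE 0.19, limma adjusted p = 0.53). DICER1-AS1 shares 80 exonic bases with DICER1 (134 ± 56.0 and 156 ± 30.6 normalized counts) and LIN28B-AS1 shares 67 with LIN28B (75.0 ± 22.6 and 68.8 ± 7.57). TRMT2A shares 12 bases with DGCR8 (266 ± 43.0 and 245 ± 29.8). RP11-642A1.2 shares 47 with AGO2 and averaged 20.7 and 30.0 normalized counts. AC105461.1 shares 51 with DIS3L2 (means of 13.3 and 16.5), and the pseudogene NRBF2P6 shares 559 (means of 9.04 and 10.2). AC006547.8, opposite DGCR8 over 526 bases, had 0 reads. None of those tested passed limma's threshold. LIN28AP1, a processed copy of LIN28A, averaged 3.16 and 0.383 normalized counts, and how reads shared with LIN28A were assigned was not tested.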

How the data were processed

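The submitters' processing notes name fastp, kallisto, DESeq2 and hg38 but give neither versions nor roles, and the annotation release was not stated there. The authors deposited 1 signal column per library, gene counts divided by a size factor (normalized counts). All values (100%) were whole multiples of 1 step per library (tolerance 1e-06), which gave back the reads, and edgeR's quasi-likelihood test on those reads called 151 rows. The deposited table also holds the authors' own p-value and adjusted p-value, test score, log2 fold change and mean signal for each row.

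The recovered reads were filtered with filterByExpr (minimum count 10), which left 27777 rows. On log2(value + 1), limma 3.58.1 in R 4.3.3 fitted group alone to the 9 libraries, using its trended prior, and p-values were adjusted by Benjamini-Hochberg over all tested rows. Intervals are limma's, unadjusted. Alternatives were edgeR 4.0.16, DESeq2 1.42.0 on all rows, other pseudocounts, filters and scalings, a replicate block and each library left out. Of these fits, only the limma fit on group alone was run on simulated data. The simulated reads were drawn for each row on its own and lacked the differences in coding share between libraries. That run therefore cannot show how the fit behaves under such differences.

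Depth was 19838682 to 31192630 reads per library, and intervals of this kind do not cover differences between clones. The genes, lists and tests were chosen with earlier results of these data known. The genes named are the 10 members, called list genes, the largest rise and fall of each list, exon-overlapping genes, and the 3 rows most like LIN28A and LIN28B. MIR98, MIRLET7BHG and the single marker genes were added after their values were seen. Gene positions came from GENCODE 29, matched for 58337 rows, and hairpins from RefSeq.

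Replicate numbers stand under a tag named batch in the labels, so libraries of 1 number were taken as paired in the replicate block and the same-numbered differences. The main limma fit, on group alone, did not use this pairing. After removal of each clone's mean, the correlation within a pair was 0.07, 0.02, 0.25 and 0.33 (replicates 1 to 4). Pairs of different number ranged from -0.29 to 0.21, and control 3 with knockout 2 (0.13) and control 4 with knockout 5 (0.21) exceeded the first and second matched pairs. Knockout 5 has no partner.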

Additional observations from a re-analysis of the deposited data

Results flagged for a closer look

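In control 3, DICER1 measured 568 normalized counts (567.9), while controls 1, 2 and 4 lay between 497 and 505. The gap to the nearest control was 0.891 of the range of the group, above Dixon's critical value of 0.829 for 4 samples. It was the only one of 20 groups tested (10 genes in 2 clones) to stand apart in this way, and chance gives about 1 in 20. The protein-coding share of reads was also highest in control 3 (50.8%), and its part in the value was not tested. Without control 3 the log2 fold change of DICER1 was 0.16.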

How the results depend on the processing

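In 19 alternatives for each of the 10 genes, 0 of 190 values passed the threshold, and the count of the 10 genes called and that of the pathway list genes called stayed at 0 in each. The signs reversed in 17 of the 190, and beyond the settings named the cause was not tested. With scaling to the protein-coding total, LIN28B came to 0.024, TUT7 to 0.044, DROSHA to 0.20, DGCR8 to 0.13 and XPO5 to 0.10. Under quantile normalization LIN28A came to -0.05 without reversing, DROSHA to 0.16, DGCR8 to 0.0090 and XPO5 to 0.027. DROSHA was 0.039 with TMM scaling and 0.039 with edgeR. LIN28B (0.066), DROSHA (0.124) and XPO5 (0.0298) reversed without control 3, DROSHA (0.0307) and DGCR8 (0.024) without control 2, and DROSHA also without knockout 1 (0.00582) or knockout 2 (0.102). With 1 library left out in turn, LIN28B ran from -0.31 to 0.066, DROSHA from -0.13 to 0.124, DGCR8 from -0.231 to 0.024 and XPO5 from -0.234 to 0.0298. The count of all tested rows called, 150, was 781 with DESeq2, which tested 38063 rows and was not filtered beforehand, and 43 with the replicate block, in which knockout 5 adds nothing to the fold change. With 1 library left out it ran from 80 (without knockout 4) to 184 (without control 4), and was 81 without control 2, 97 without knockout 2 and 82 without knockout 5. The replicate block changed no call among the 10 genes. Depth limits TUT7 and DIS3L2 most, where counting error averaged 6.73% and 7.39% over the 9 libraries.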

Other observations

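Introns of these genes host small RNA genes, which were looked up after the values of their hosts were known. On the opposite strand, 3 of these averaged higher in the knockout clone. RNU6-1106P, in LIN28B, averaged 43.1 normalized counts in the control and 69.0 in the knockout clone (log2 fold change 0.65, SE 1.67, limma adjusted p = 0.92). RF00019, in DROSHA, averaged 160 and 238, and RF00426, in XPO5, averaged 321 and 377. The other 2 averaged lower. MIR3173, in DICER1, measured 145 ± 82.1 normalized counts (SD, n = 4 control libraries) and 134 ± 113 (SD, n = 5 knockout libraries), a log2 fold change of -0.30 (SE 0.63, limma adjusted p = 0.90). MIR562, in DIS3L2, measured 108 ± 105 and 37.2 ± 58.8, a log2 fold change of -2.66 (SE 2.04, limma adjusted p = 0.78).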
